A study of Danio rerio with 11 samples.

Results

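Stage II oocytes of WT zebrafish (Danio rerio) were compared with stage I oocytes of WT zebrafish, across genes and functions. The comparison rests on 4 of the 11 libraries of the series, namely 2 WT stage II and 2 WT stage I libraries. All 4 were taken by their labels, and no measured value entered the choice. Ovaries came from 3-month-old females, were dissociated in cell dissociation buffer at 28.5 °C, and oocytes were picked by hand. Each stage II library was made from the polyadenylated RNA of about 150 oocytes, and each stage I library from that of about 600. Stage and number of oocytes per library differed together and cannot be told apart. Oocytes of the same stages carrying the CRISPR/Cas9 allele tsu7d of znf706 (label MZznf706, 2 libraries per stage, same age and handling) entered for the estimate of the spread and for a side-by-side view at the end. The strain of the WT fish is not given in the sources used here. The 3 CUT&Tag libraries were not analysed here.

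Oocytes grow while arrested in meiotic prophase. In zebrafish, stage I covers primary growth, in which the Balbiani body gathers germ plasm RNA at the vegetal side and the oocyte transcribes the RNA that the embryo will inherit. At stage II, cortical alveoli fill the cytoplasm and the egg coat thickens, before yolk protein is taken up in bulk. The mature egg carries nearly everything the embryo uses until its own genome is switched on: ribosomes, mitochondria, histones, cell-cycle proteins and stored mRNA.

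Values are FPKM, fragment counts scaled by transcript length and library size, so they are levels within a library's RNA and not amounts per oocyte. Fewer cells of a type and less RNA per cell cannot be told apart in them. Whether the changes below follow transcript length was not tested. Of 31952 gene IDs, 12792 reached 1 FPKM in 2 or more of the 4 WT libraries and were tested. Another 9521 were at 0 in all 4. Summed FPKM was 712725 and 694210 at stage II, against 853280 and 899582 at stage I. The 10 most abundant genes held 4.51% and 4.13% of the summed FPKM at stage II, against 9.16% and 10.4% at stage I. Replicates of a stage correlated across genes at r = 0.985 (stage II) and 0.989 (stage I), and libraries of different stages at 0.902 to 0.913. Genes are not independent replicates, so these values describe the libraries only. An exact 0 can be a failed estimate in this table: 19 tested genes in WT stage II and 9 in WT stage I were listed at 0 in one library and at 5 FPKM or more in the other. One of them, etf1b, a translation termination factor that every cell uses, was listed at 0 and 129 FPKM at stage II.

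The libraries carried the oocyte markers chosen for this comparison, and the summed levels of other cell types' markers were lower than theirs. The 13 oocyte markers, among them zp3b, gdf9, buc, ddx4 and zar1, summed to 7271 and 6567 FPKM at stage II, against 9096 and 10085 FPKM at stage I. Granulosa cell markers summed to 18.2 and 18.0 FPKM at stage II, against 14.8 and 9.79 FPKM at stage I, with 9 of 16 under 1 FPKM throughout and igf3 and fshr at 0. Stroma, muscle and endothelium markers summed to 11.7 and 12.3 FPKM at stage II, against 16.3 and 12.9 FPKM at stage I, and 16 of 20 were under 1 FPKM. Liver markers summed to 3.42 and 4.10 FPKM at stage II, against 10.4 and 9.70 FPKM at stage I, and 19 of 20 were under 1 FPKM. Blood markers summed to 60.0 to 61.6 FPKM at stage II and 53.5 to 58.5 FPKM at stage I, with hbba1, hbba2 and hbae1.1 at 0. Leukocyte markers summed to 90.0 and 92.8 FPKM at stage II, against 252 and 168 FPKM at stage I. Of them, mpeg1.1, marco, c1qa and c1qb were at 0 and 19 of 28 were under 1 FPKM. The marker mfap4, listed under several IDs, was present. ENSDARG00000116066 had 5.32 and 7.96 FPKM at stage II, against 102 and 37.3 FPKM at stage I. ENSDARG00000090557 had 27.9 and 23.5 FPKM at stage II, against 59.3 and 58.7 FPKM at stage I. ENSDARG00000111491 was lower at stage II too. ENSDARG00000090783 was higher, with 5.82 and 9.15 FPKM at stage II, against 2.77 and 4.22 FPKM at stage I. Theca and steroidogenic markers summed to 130 and 163 FPKM at stage II, against 341 and 328 FPKM at stage I; 7 of 11, star and cyp11c1 included, were under 1 FPKM, and the steroid enzyme genes cyp11a1, hsd3b2 and cyp17a1 held most of the sum. cyp11a1 had 53.5 and 82.4 FPKM at stage II, against 221 and 203 FPKM at stage I, which is above the oocyte markers gdf9 and ddx4 at stage I. hsd3b2 had 39.5 and 42.96 FPKM at stage II, against 70.4 and 76.9 FPKM at stage I, and cyp17a1 had 34.0 and 34.9 FPKM at stage II, against 47.9 and 47.6 FPKM at stage I. The sums of every marker list named here separated by stage, higher at stage II for granulosa and blood markers and lower for the others. Their part in the gene changes was not tested.

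Most tested genes differed between the stages. At stage II, 5225 genes were higher (40.8% of those tested) and 3028 were lower (23.7%), by limma on log2(FPKM + 1) with a Benjamini-Hochberg adjusted p under 0.05. Of all tested genes, the WT libraries of one stage lay wholly above those of the other in 81.3%, 49.8% with stage II higher and 31.5% with stage II lower, and 64.5% were called. At least 2-fold differences made up 1743 of the rises (13.6%) and 976 of the falls (7.63%). The median log2 change of all tested genes was 0.18. The split depends on scaling: 63.3% of the calls were higher at stage II as deposited, 49.2% after median-of-ratios scaling (4035 higher, 4165 lower) and 53.3% after quantile normalization (4382 higher, 3832 lower). Those scalings moved the median by -0.20 and -0.14, so a list's median is given below relative to that of all tested genes. A list's counts under another scaling hold that shift too, since over all tested genes both scalings gave fewer rises and more falls. The median change was 0.14, 0.34, 0.34 and -0.05 in 4 equal groups of genes ordered from the lowest to the highest mean level. In the highest group, at 43.9 FPKM or more, 37.9% of genes fell and 33.8% rose.

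**Figure D1:**
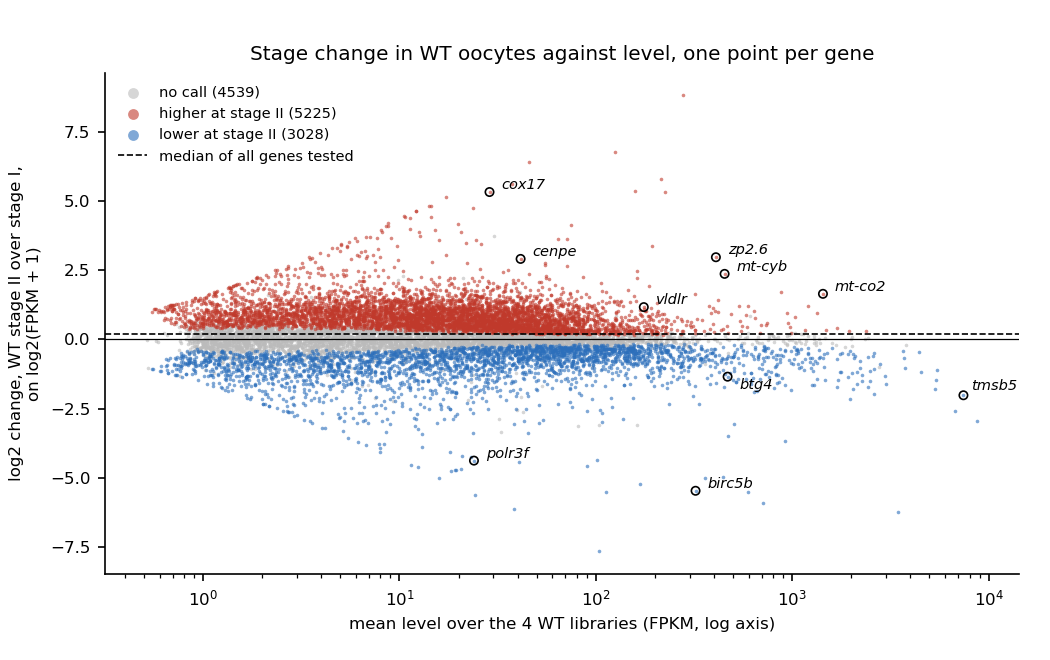
Log2 change at stage II relative to stage I in WT oocytes (vertical axis) against mean FPKM over the 4 WT libraries (horizontal log axis), 1 point per tested gene, coloured by call. Called rises (5225) and falls (3028) spread over the whole range of levels, and labelled genes include cenpe and zp2.6 among the rises and birc5b and polr3f among the falls.

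Several of the most abundant RNAs of stage I held a smaller share at stage II. Choosing genes by a high stage I level favours falls. tmsb5, which encodes an actin-binding beta thymosin, had 3283 and 2605 FPKM at stage II, against 10460 and 13437 FPKM at stage I, a log2 change of -2.02 ± 0.16 (SE; adjusted p = 3.0e-05, limma). The metallothionein mt2 had 2837 and 2730 FPKM at stage II, against 6925 and 5643 FPKM at stage I. The gene si:ch73-132k15.2 had 2154 and 1882 FPKM at stage II, against 14049 and 16825 FPKM at stage I. No stage II library overlapped a stage I library for these 3 genes. si:dkeyp-20e4.8, a lncRNA in the RefSeq annotation, differed most among the abundant genes, with 78.2 and 100.3 FPKM at stage II, against 5857 and 7722 FPKM at stage I (log2 change -6.23 ± 0.18). After quantile normalization the change of mt2 was -0.00 and that of tmsb5 -0.38. Among other abundant genes, cldnd changed by -0.44 as deposited and by 0.92 after quantile normalization. For crp2 the changes were -1.11 and 0.38.

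**Figure D2:**
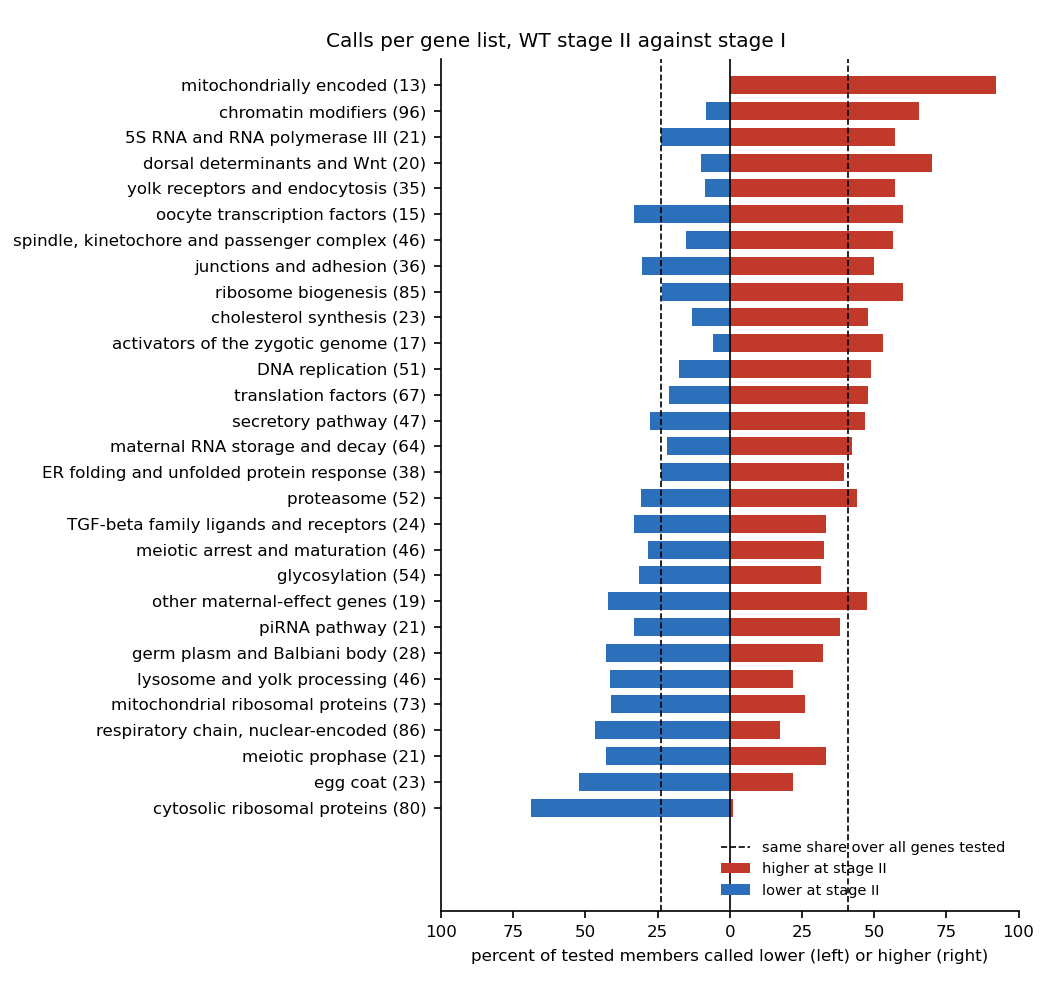
Share of tested members called higher (right) and lower (left) at stage II in WT oocytes, in percent, for gene lists with at least 13 tested members. The oocyte markers (13 tested, 2 higher and 7 lower) were left out of the figure. Dashed lines mark the shares over all tested genes, 40.8% higher and 23.7% lower. Mitochondrially encoded genes (12 of 13), dorsal and Wnt genes (14 of 20) and chromatin modifiers (63 of 96) have the longest bars to the right, and cytosolic ribosomal proteins (55 of 80 lower) the longest to the left.

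Genes for yolk uptake were higher at stage II. Of 35 tested receptors, adaptors and endosomal genes, 20 rose (57.1%) and 3 fell (8.57%), with a relative median of 0.29, which was 0.16 without WT stage II replicate 2. vldlr, a lipoprotein receptor that takes up vitellogenin in fish oocytes, had 236 and 250 FPKM at stage II, against 110 and 106 FPKM at stage I. This was a log2 change of 1.16 ± 0.07 (SE; adjusted p = 1.3e-05, limma). lrp13, a related receptor of oocytes, had 287 and 282 FPKM at stage II, against 146 and 155 FPKM at stage I. dab2, the adaptor that links such receptors to clathrin, had 275 and 267 FPKM at stage II, against 155 and 138 FPKM at stage I. Both stage II libraries were well above both stage I libraries for all 3. The sorting receptor gene sorl1 (1.25), dynamin gene dnm2a (1.07), epsin gene epn1 (0.96) and clathrin heavy chain gene cltcb (0.76) rose as well, in log2 change. The 3 that fell were lrpap1, whose product is a chaperone of these receptors, rab5b, a GTPase of early endosomes, and ap2s1, a small subunit of the clathrin adaptor. lrpap1 had 21.2 and 34.6 FPKM at stage II, against 88.1 and 81.4 FPKM at stage I (-1.61 ± 0.19).

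Lysosomal genes went the other way more often. Of 46, 10 were higher (21.7%) and 19 lower (41.3%), beside 40.8% and 23.7% over all tested genes. After median-of-ratios scaling 6 were higher. lamp2, which encodes an abundant protein of the lysosomal membrane, had 443 and 441 FPKM at stage II, against 974 and 849 FPKM at stage I (-1.04 ± 0.08). npc1, the membrane protein that exports cholesterol from lysosomes, rose to 33.3 and 41.4 FPKM at stage II, against 16.1 and 14.6 FPKM at stage I. Its soluble partner npc2 fell, by 0.61 on the log2 scale, though that call was lost after quantile normalization (-0.18).

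Egg coat genes fell in part, and 1 rose strongly. All 23 zona pellucida genes of the table were tested; 12 fell (52.2%) and 5 rose (21.7%), with a relative median of -0.66. The higher members numbered 3 without WT stage I replicate 1 and 3 without WT stage II replicate 1. After quantile normalization 6 fell and 10 rose, with a relative median of 0.05, so the direction of the family depends on scaling. zpcx had 298 and 306 FPKM at stage II, against 909.6 and 955 FPKM at stage I (-1.62 ± 0.09; adjusted p = 7.6e-06, limma), and it fell under each scaling. zp2.5 had 748 and 700.3 FPKM at stage II, against 1579 and 1574 FPKM at stage I (-1.12). zp2.6 was the large rise, with 759 and 692 FPKM at stage II, against 84.4 and 100 FPKM at stage I (2.97 ± 0.09). zp3b, among the most abundant coat genes, had 2103 and 2190 FPKM at stage II, against 1583 and 1901 FPKM at stage I, and its call (0.31, adjusted p = 0.039) was lost on leaving out any of 3 libraries. Zona pellucida genes have close copies, and how reads shared between copies were assigned is not given in the sources used here. The same holds for other genes listed under 2 IDs, such as rrm2, hook2 and qdprb2.

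Balbiani body and germ plasm genes divided into falls and rises. Of 28 tested, 12 fell (42.9%) and 9 rose (32.1%), with a relative median of -0.27. buc, which encodes the protein that organizes the Balbiani body, had 439 and 497 FPKM at stage II, against 1061 and 1009 FPKM at stage I (-1.15 ± 0.09; adjusted p = 3.1e-05, limma). nanos3, a translational repressor of germ cells, had 44.0 and 41.4 FPKM at stage II, against 77.8 and 79.8 FPKM at stage I (-0.87 ± 0.06). ca15b, a germ plasm RNA, had 469 and 439 FPKM at stage II, against 1041 and 868 FPKM at stage I (-1.06). Each of these genes was lower in both stage II libraries than in either stage I library. hook2, a dynein adaptor gene listed under 2 IDs, fell under both (-2.14 and -1.64). sybu, whose product carries dorsal determinants along microtubules, fell by 0.49.

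Other genes of the same compartment rose. g3bp1, an RNA granule protein gene, had 560 and 552 FPKM at stage II, against 271 and 292 FPKM at stage I (0.98 ± 0.08). macf1a, which encodes the cytoskeletal linker needed to disassemble the Balbiani body in zebrafish, had 5.40 and 5.66 FPKM at stage II, against 2.23 and 1.57 FPKM at stage I (1.18). The Tudor-domain gene tdrd7a (0.87), the arginine methyltransferase gene prmt5 (0.87) and the helicase gene ddx4, known as vasa (0.51), rose too. dnd1, which encodes an RNA-binding protein of primordial germ cells, did not pass the test (0.13), nor did dazl (-0.23, adjusted p = 0.059), although dazl fell by 0.45 with a call after median-of-ratios scaling. Of 21 tested piRNA pathway genes 8 rose (38.1%) and 7 fell (33.3%), beside 40.8% and 23.7% over all tested genes. The rises numbered 5 without WT stage I replicate 2, without WT stage II replicate 2, and under each of the other scalings. tdrd5 had 46.9 and 46.1 FPKM at stage II, against 19.6 and 21.3 FPKM at stage I, whereas tdrd1 had 30.6 and 26.5 FPKM at stage II, against 57.1 and 54.4 FPKM at stage I. piwil1, the Argonaute protein gene of the pathway, had 33.3 and 33.3 FPKM at stage II, against 35.1 and 37.6 FPKM at stage I (-0.12, adjusted p = 0.18).

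**Figure D3:**
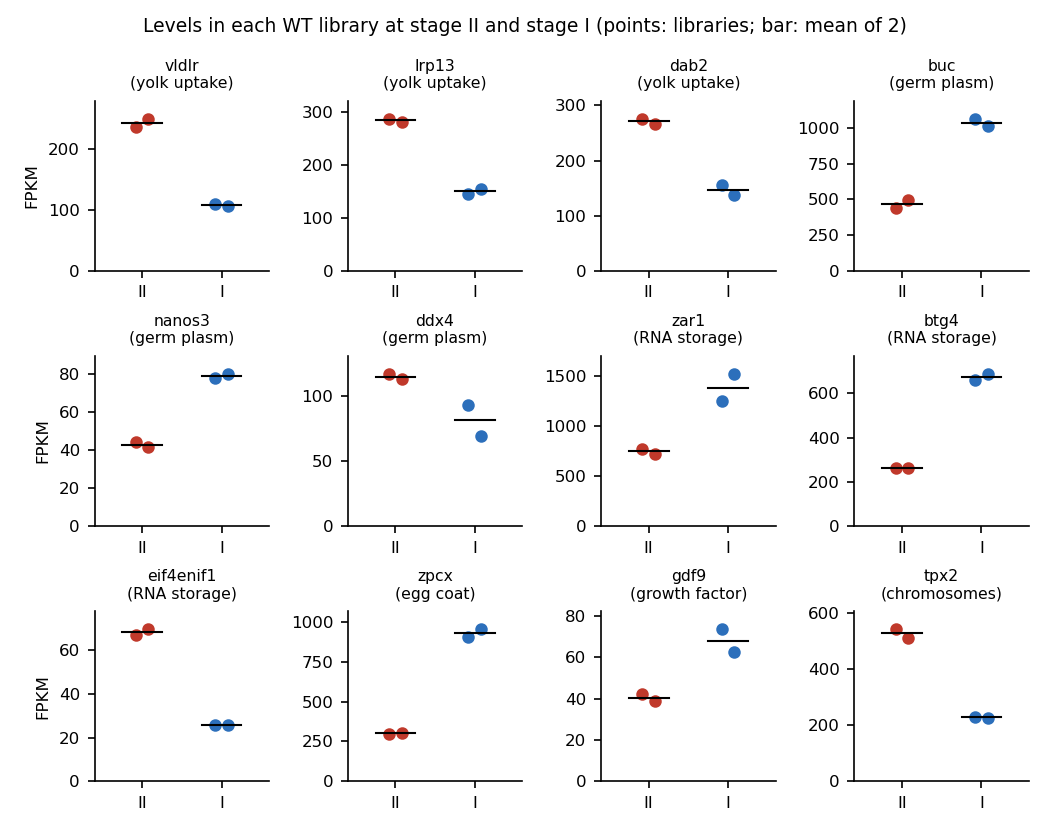
FPKM of 12 genes in each WT library (points), stage II left of stage I, with bars at the group means and axes that start at 0. vldlr, lrp13, dab2, ddx4, eif4enif1 and tpx2 are higher in both stage II libraries than in either stage I library, and buc, nanos3, zar1, btg4, zpcx and gdf9 are lower in both.

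Meiotic prophase genes were few and of low to moderate level, since 17 of the 38 in the table were not tested. Among the 21 tested, 9 fell (42.9%) and 7 rose (33.3%), beside 23.7% and 40.8% over all tested genes. mnd1, needed for strand invasion, had 31.8 and 30.8 FPKM at stage II, against 59.8 and 65.1 FPKM at stage I (-0.97 ± 0.11; adjusted p = 1.4e-04, limma). syce2 (synaptonemal complex, -0.81) and spo11 (double-strand breaks, -0.61) fell as well. brca2, a mediator of strand exchange, had 19.7 and 22.0 FPKM at stage II, against 9.71 and 9.31 FPKM at stage I (1.05). Of 7 tested genes of early germ cells 2 rose (28.6%) and 3 fell (42.9%). lin28a, one of them, whose product blocks let-7 maturation, had 11 and 13.2 FPKM at stage II, against 37.6 and 30.6 FPKM at stage I (-1.42). Its paralog lin28b rose, with 2.54 and 2.07 FPKM at stage II, against 0.333 and 0.852 FPKM at stage I (1.07). The lin28b call was lost on leaving out either of 2 WT libraries.

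Transcription factor genes of the oocyte moved both ways, with 9 of 15 higher (60.0%) and 5 lower (33.3%). foxr1 had 23.4 and 26.4 FPKM at stage II, against 53.7 and 64.6 FPKM at stage I (-1.21). figla, which activates zona pellucida genes, had 8.35 and 10.04 FPKM at stage II, against 15.6 and 14.4 FPKM at stage I (-0.65 ± 0.12; adjusted p = 0.0016, limma). znf706, the gene mutated elsewhere in the series, had 158 and 143 FPKM at stage II, against 232 and 238 FPKM at stage I (-0.64 ± 0.11). eomesa, a maternal T-box factor gene, had 73.8 and 74.2 FPKM at stage II, against 41.7 and 41.0 FPKM at stage I (0.83). Among the activators of the zygotic genome, 9 of 17 rose (52.9%), beside 40.8% over all tested genes, and 1, pou5f3, fell (5.88%). pou5f3 had 10.02 and 10.6 FPKM at stage II, against 21.0 and 20.4 FPKM at stage I. The histone acetyltransferase genes crebbpa (1.49), ep300b (1.04) and crebbpb (1.03) were among the rises. nanog (-0.15, adjusted p = 0.16) and sox19b (-0.07, adjusted p = 0.63) did not pass the test, although nanog was called lower after median-of-ratios scaling (-0.38).

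Genes that store or remove maternal RNA rose in 27 of 64 cases (42.2%) and fell in 14 (21.9%), close to the shares over all genes; 22 fell after median-of-ratios scaling. The members that fell included abundant ones known from oocytes. zar1, which binds and stabilizes maternal mRNA, had 771 and 721 FPKM at stage II, against 1251 and 1519 FPKM at stage I (-0.89 ± 0.11; adjusted p = 1.8e-04, limma). btg4, the adaptor that brings the CCR4-NOT deadenylase to maternal mRNA, had 265 and 263 FPKM at stage II, against 659.6 and 687 FPKM at stage I (-1.35 ± 0.10). cpeb1b (-0.73) and eif4e1b (-0.61), both translational regulators of oocytes, also fell. zar1, btg4, cpeb1b and eif4e1b kept a called fall under both other scalings. ddx6, a helicase gene of decapping and translational repression, fell too, with 4.96 and 4.83 FPKM at stage II, against 8.29 and 12.3 FPKM at stage I (-0.91, adjusted p = 0.0042). Among the members that rose were cnot4b of the CCR4-NOT group (1.49), the deadenylase subunit gene pan2 (1.40), the decapping scaffold gene edc4 (1.30), fxr1 (1.07) and the exonuclease gene xrn1 (0.99). eif4enif1, which encodes the repressor 4E-T, had 67.1 and 69.6 FPKM at stage II, against 25.8 and 26.0 FPKM at stage I (1.37 ± 0.11).

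Of 19 other maternal-effect genes, 9 were higher (47.4%) and 8 lower (42.1%), beside 40.8% and 23.7% over all tested genes. The relative median was -0.23. mid1ip1l, a cytoskeletal regulator of the first cleavages, had 1336 and 1298 FPKM at stage II, against 2971 and 2971 FPKM at stage I (-1.17 ± 0.09). slbp2, an oocyte histone mRNA binding protein gene, fell by 0.86 on the log2 scale, and h1m, the maternal linker histone gene, by 0.66. npm2b fell by 0.68, but after quantile normalization its change was 0.02. lrmp, needed for attachment of pronuclei to the centrosome, had 51.1 and 58.8 FPKM at stage II, against 12.5 and 15.0 FPKM at stage I (1.93 ± 0.17).

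Signalling genes moved both ways. Of the growth factors that oocytes send to their follicle cells, gdf9 had 42.3 and 38.8 FPKM at stage II, against 73.6 and 62.5 FPKM at stage I (-0.73 ± 0.09; adjusted p = 2.5e-04, limma). bmp15 had 171 and 172 FPKM at stage II, against 179 and 168 FPKM at stage I (-0.02, adjusted p = 0.85), so that its libraries overlapped. After median-of-ratios scaling bmp15 was called lower (-0.24). gdf3, which encodes a maternal partner of Nodal known as Vg1, had 709.5 and 699 FPKM at stage II, against 1004 and 1075 FPKM at stage I (-0.56). The receptor gene bmpr1ba had 77.4 and 86.2 FPKM at stage II, against 36.0 and 33.6 FPKM at stage I (1.21), and the effector gene smad2 rose by the same log2 change. Other receptor genes, bmpr1aa (-0.72), acvr1bb (-0.77) and acvr2ba (-0.62), fell, each with a call lost on leaving out at least 2 of the WT libraries in turn. Over the 24 tested TGF-beta family genes 8 rose (33.3%) and 8 fell (33.3%), beside 40.8% and 23.7% over all tested genes. The falls numbered 2 without WT stage I replicate 1 and 4 without WT stage II replicate 1 or replicate 2. Of 20 dorsal determinant and Wnt genes, 14 rose (70%) and 2 fell (10%), with a relative median of 0.37. tcf7l1a, a repressor of Wnt targets, had 34.5 and 38.8 FPKM at stage II, against 13.2 and 12.5 FPKM at stage I (1.44 ± 0.10), and apc and axin1 of the beta-catenin destruction complex rose by 1.43 and 0.90. The beta-catenin genes ctnnb1 (0.76) and ctnnb2 (0.54) rose as well. The ligand gene wnt8a fell: it was listed at about 0 and at 0.609 FPKM at stage II, against 17.3 and 15.6 FPKM at stage I (-3.78 ± 0.27). hwa, the maternal dorsal determinant gene huluwa, had 59.1 and 57.1 FPKM at stage II, against 56.8 and 69.6 FPKM at stage I, and did not pass the test (adjusted p = 0.44).

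Genes of the spindle, kinetochore and chromosomal passenger complex rose more often than all tested genes. Of 46, 26 rose (56.5%) and 7 fell (15.2%), beside 40.8% and 23.7% over all tested genes. The falls numbered 4 without WT stage I replicate 1 and 3 without WT stage II replicate 2, and median-of-ratios scaling gave 21 higher and 18 lower. cenpe, a kinetochore motor gene, had 70.4 and 77.2 FPKM at stage II, against 8.30 and 9.69 FPKM at stage I (2.90 ± 0.12; adjusted p = 2.1e-06, limma). kif11, the motor gene for spindle bipolarity, had 190 and 193 FPKM at stage II, against 76.1 and 71.6 FPKM at stage I (1.37). tpx2, a spindle assembly factor gene, had 540 and 511 FPKM at stage II, against 230 and 227 FPKM at stage I (1.20). plk4, the kinase gene of centriole duplication, rose by 1.99, and aurkb by 0.56. birc5b, a survivin gene of the passenger complex, went against them, with 11.8 and 14.8 FPKM at stage II, against 573 and 689 FPKM at stage I (-5.47 ± 0.18). Its paralog birc5a fell by 0.33 on the log2 scale (adjusted p = 0.024, limma), and that call was lost whichever WT library was left out.

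Cell-cycle control and DNA replication genes each held rises and falls. Of 46 tested genes of meiotic arrest and maturation, 15 rose (32.6%) and 13 fell (28.3%), beside 40.8% and 23.7% over all tested genes. Their relative median was -0.11. cdk1, the kinase gene of maturation promoting factor, had 139 and 135 FPKM at stage II, against 222 and 197 FPKM at stage I (-0.60). ccnb1, its cyclin B1 partner, had 913 and 929 FPKM at stage II, against 1157 and 1257 FPKM at stage I (-0.39), but after quantile normalization its change was 0.06. cdc25b, whose product activates Cdk1, had 117 and 117 FPKM at stage II, against 55.6 and 59.0 FPKM at stage I (1.02 ± 0.09; adjusted p = 4.5e-05, limma). The protein kinase A subunit genes prkacab (1.94) and prkar1ab (1.13) rose, and pgrmc1, a membrane progestin receptor component gene, fell (-0.98). Of 51 replication genes 25 rose (49.0%) and 9 fell (17.6%), with a relative median of 0.06. The catalytic subunit genes pold1 (127 and 143 FPKM at stage II, against 42.8 and 42.5 FPKM at stage I, 1.64), pole (1.92) and pola1 (1.28) rose, and pold2, which encodes a smaller subunit of the polymerase of pold1, fell by 1.51. The ribonucleotide reductase gene rrm2 is listed under 2 IDs. The ID ENSDARG00000020711 had 485 and 498 FPKM at stage II, against 1142 and 1187 FPKM at stage I (-1.24). The other, ENSDARG00000078069, had 283 and 214 FPKM at stage II, against 1.07 and 1.51 FPKM at stage I (6.76 ± 0.14), the largest called rise among genes whose symbol is not a clone name.

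Among chromatin genes, most of the few histone genes found by symbol were lower and most modifiers were higher. Histone genes under other names were not counted, and histone RNA without a poly(A) tail is outside these libraries. Of 10 tested histone genes 7 fell (70.0%) and 1 rose, with a relative median of -0.76. h2ax had 81.2 and 85.3 FPKM at stage II, against 152 and 197 FPKM at stage I (-1.04 ± 0.12; adjusted p = 1.3e-04, limma), and h2az2a fell by 0.63, while its paralog h2az2b rose by 0.71. Of 96 chromatin modifier genes 63 rose (65.6%) and 8 fell (8.33%), 29 of the rises by 2-fold or more, and the relative median was 0.42. smarca5, a nucleosome remodelling ATPase gene, had 88.3 and 93.4 FPKM at stage II, against 33.6 and 32.3 FPKM at stage I (1.44 ± 0.07). ehmt1a, a histone H3 lysine 9 methyltransferase gene, had 52.5 and 51.6 FPKM at stage II, against 15.1 and 15.5 FPKM at stage I (1.70). Its paralog ehmt1b (2.02), the H3 lysine 4 methyltransferase gene kmt2ba (1.68) and the BAF complex gene smarcc1b (1.62) rose as well. There were 52 rises after median-of-ratios scaling and 51 with quantile-normalized values.

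Cytosolic ribosomal protein genes were lower. Of 80 tested, 55 fell (68.8%), 19 of them by 2-fold or more, and 1 rose, with a relative median of -0.71. rps29 had 1247 and 1018 FPKM at stage II, against 3294 and 4187 FPKM at stage I (-1.72 ± 0.15; adjusted p = 4.3e-05, limma). rps28 had 414 and 328 FPKM at stage II, against 1191 and 1312 FPKM at stage I (-1.76 ± 0.12). rpl38 (-1.73) and rpl29 (-1.50) fell to a similar degree. rplp0 had 1305 and 1200.0 FPKM at stage II, against 1048 and 1239.6 FPKM at stage I, and did not pass the test (0.13, adjusted p = 0.28). rpsa was the called rise (0.34); 3 members rose without WT stage I replicate 2. The count depends on scaling, with 59 lower and 0 higher after median-of-ratios scaling and 27 lower and 20 higher after quantile normalization, where the relative median was -0.15.

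Genes that build ribosomes were not lower as a group. Of 85, 51 rose (60.0%) and 20 fell (23.5%), beside 40.8% and 23.7% over all tested genes. After median-of-ratios scaling 32 were higher and 23 lower. nop58, a core protein gene of snoRNPs that guide rRNA methylation, had 156 and 165 FPKM at stage II, against 70.3 and 57.6 FPKM at stage I (1.32 ± 0.10; adjusted p = 2.3e-05, limma). The helicase gene ddx21 had 183 and 186 FPKM at stage II, against 71.8 and 84.3 FPKM at stage I (1.24). riok2, a kinase gene of late small-subunit maturation, had 10.6 and 14.3 FPKM at stage II, against 75.03 and 76.8 FPKM at stage I (-2.53 ± 0.13). nhp2, a small protein gene of snoRNPs that guide pseudouridylation, fell by 1.19. rrp9, which encodes a protein of the U3 snoRNP, had 16.5 and 18.4 FPKM at stage II and was listed at 0 in both stage I libraries.

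The 5S RNA and RNA polymerase III genes held some of the largest changes in both directions. Of 21 tested, 12 were higher (57.1%) and 5 lower (23.8%), beside 40.8% and 23.7% over all tested genes. Growing fish oocytes make 5S rRNA in large amounts and store it with dedicated proteins. The gene for one of these, 42sp43 (listed as si:dkey-208k4.2), had 221 and 229 FPKM at stage II, against 549 and 551 FPKM at stage I (-1.28 ± 0.08; adjusted p = 1.3e-05, limma). polr3f, a polymerase III subunit gene, had 1.27 and 1.30 FPKM at stage II, against 46.4 and 46.8 FPKM at stage I (-4.38 ± 0.14). polr3c, another subunit gene, had 66.1 and 64.0 FPKM at stage II, against 24.0 and 22.5 FPKM at stage I (1.44). gtf3ab, a paralog encoding the 5S initiation factor TFIIIA, had 24.9 and 32.2 FPKM at stage II, against 0.299 and 0.470 FPKM at stage I (4.41 ± 0.17). Subunits of one enzyme thus differed in direction, polr3b (1.67) rising and polr3k (-1.30) falling. Translation factor genes rose in 32 of 67 cases (47.8%) and fell in 14 (20.9%), near the shares over all tested genes. After median-of-ratios scaling 20 were higher and 21 lower. eif3ea had 209 and 218 FPKM at stage II, against 83.7 and 84.3 FPKM at stage I (1.34), whereas the cap-binding gene eif4ea had 67.0 and 62.7 FPKM at stage II, against 177 and 174 FPKM at stage I (-1.42).

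Mitochondrial genes were higher at stage II when encoded in the mitochondrial genome and lower more often when encoded in the nucleus. Of 13 mitochondrially encoded protein genes, 12 rose (92.3%), with a relative median of 1.46. mt-cyb, the cytochrome b gene of complex III, had 758 and 750.3 FPKM at stage II, against 192 and 110.2 FPKM at stage I (2.36 ± 0.25; adjusted p = 9.8e-05, limma). mt-co1, a complex IV core subunit gene, had 1230 and 1439 FPKM at stage II, against 520.2 and 321 FPKM at stage I (1.70 ± 0.22). mt-nd4 of complex I had 283 and 309.9 FPKM at stage II, against 92.2 and 62.8 FPKM at stage I (1.94). Stage I replicate 2 was the lower of its pair for each of these 3 genes, and the groups did not overlap. mt-atp8 was the exception, with 373 and 157 FPKM at stage II, against 548 and 363 FPKM at stage I; it did not pass the test (-0.88, adjusted p = 0.061) but was called lower after median-of-ratios scaling and without WT stage II replicate 1. All libraries were made from polyadenylated RNA.

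Of 86 tested nuclear genes of the respiratory chain, 40 fell (46.5%) and 15 rose (17.4%), with a relative median of -0.39; median-of-ratios scaling gave 50 lower and 8 higher, and quantile normalization gave 31 lower and 24 higher and a relative median of -0.05. atp5md, a small accessory subunit gene of ATP synthase, had 336 and 236 FPKM at stage II, against 1015 and 1057 FPKM at stage I (-1.88 ± 0.14; adjusted p = 2.5e-05, limma). cox7c, a small subunit gene of complex IV, had 467 and 399 FPKM at stage II, against 1132 and 1421 FPKM at stage I (-1.55). ndufa1 (-1.60) and uqcr10 (-1.37), accessory subunit genes of complexes I and III, fell likewise. Core subunit genes were among the rises. ndufs1 of complex I had 82.3 and 83.9 FPKM at stage II, against 46.0 and 46.8 FPKM at stage I (0.83 ± 0.09). sdha (0.95) and uqcrc2a (0.85) rose too. ATP synthase genes other than atp5md went both ways. atp5meb had 90.3 and 92.5 FPKM at stage II, against 0.173 and 0 FPKM at stage I (6.42 ± 1.47), and its paralog atp5mea fell (-1.70). In the mutant stage II libraries atp5meb was listed at 58.6 and 0 FPKM, and an exact 0 can be a failed estimate here. Core and accessory subunit genes were not compared as groups. Mitochondrial ribosomal protein genes fell in 30 of 73 cases (41.1%) and rose in 19 (26.0%), beside 23.7% and 40.8% over all tested genes. After median-of-ratios scaling 42 were lower and 8 higher. mrps31 had 0.841 and 1.46 FPKM at stage II, against 35.4 and 34.4 FPKM at stage I (-4.08 ± 0.17), and mrpl2 had 69.2 and 64.0 FPKM at stage II, against 22.4 and 22.7 FPKM at stage I (1.52).

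**Figure D4:**
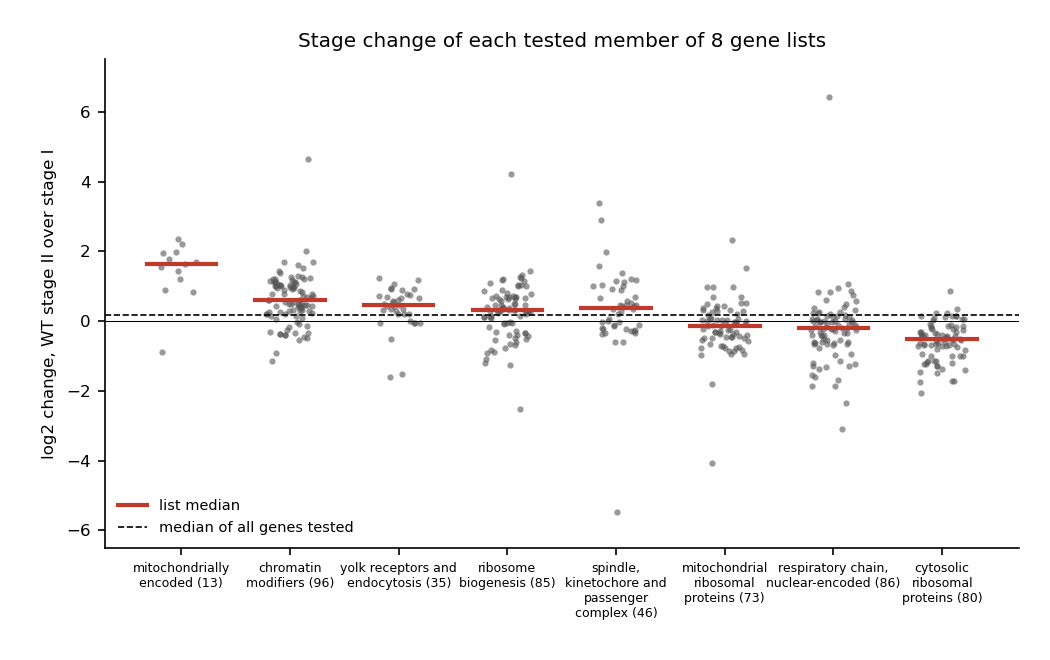
Log2 change at stage II relative to stage I in WT oocytes for every tested member of 8 gene lists (points), with the list medians as bars. Mitochondrially encoded genes sit highest (12 of 13 called higher), chromatin modifiers lie mostly above 0, and cytosolic ribosomal proteins lie mostly below 0 (55 of 80 called lower).

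Secretory, folding and membrane genes were mixed by member. In the endoplasmic reticulum, the chaperone gene hspa5 (BiP) had 1282 and 1362 FPKM at stage II, against 734 and 772 FPKM at stage I (0.81 ± 0.09; adjusted p = 1.0e-04, limma). pdia6, a disulfide isomerase gene, had 156 and 129.5 FPKM at stage II, against 29.2 and 28.2 FPKM at stage I (2.27). The calreticulin paralog calr3b had 23.6 and 21.6 FPKM at stage II, against 148 and 109 FPKM at stage I (-2.44). Over the 38 folding and unfolded protein response genes, 15 rose (39.5%) and 9 fell (23.7%). These shares were close to the 40.8% and 23.7% over all tested genes. There were 8 higher and 13 lower after median-of-ratios scaling, and 5 lower without WT stage I replicate 1. Of 47 secretory pathway genes 22 rose (46.8%) and 13 fell (27.7%), with 15 higher and 18 lower after median-of-ratios scaling and 7 lower after quantile normalization. The coat protein genes copa (1.18) and copb2 (1.30) were among the rises. The small translocon subunit gene sec61g had 2025 and 1761 FPKM at stage II, against 2701 and 3218 FPKM at stage I (-0.64), but was called higher after quantile normalization (0.22). Of 23 cholesterol synthesis genes 11 rose (47.8%, beside 40.8% over all tested genes) and 3 fell. The rises numbered 6 after median-of-ratios scaling and 7 with quantile normalization, and were fewer without WT stage II replicate 1 too. The 3 that fell were msmo1 (-1.49), mvda (-1.14) and mvk (-0.29). The mvk call was lost on leaving out either of 2 WT libraries. hmgcrb, the rate-limiting reductase gene, had 33.5 and 35.1 FPKM at stage II, against 14.6 and 12.2 FPKM at stage I (1.30 ± 0.12).

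At the oocyte surface, 18 of 36 tested junction and adhesion genes rose (50.0%) and 11 fell (30.6%). The shares over all tested genes were 40.8% and 23.7%. cx44.2, a connexin gene, had 33.1 and 30.2 FPKM at stage II, against 3.40 and 2.51 FPKM at stage I (3.05 ± 0.14; adjusted p = 2.7e-06, limma). The tight junction scaffold genes tjp3 (1.45) and tjp2b (1.20) and the alpha-catenin gene ctnna1 (1.01) rose. cdh1, the E-cadherin gene, had 13.96 and 13.7 FPKM at stage II, against 25.02 and 20.9 FPKM at stage I (-0.69). The claudin gene cldng had 2076 and 2013 FPKM at stage II, against 3042 and 3158 FPKM at stage I (-0.60), and was not called after quantile normalization (0.21). Among genes of retinoid and steroid metabolism, 4 of 11 rose (36.4%) and 3 fell (27.3%), near the shares over all tested genes. The retinoic acid receptor gene rarab had 38.3 and 48.1 FPKM at stage II, against 21.9 and 15.99 FPKM at stage I (1.16). The retinoid enzyme genes aldh1a2 (-1.03) and cyp26a1 (-0.61) fell. The aldh1a2 call was lost on leaving out either of 2 WT libraries.

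A small number of genes were close to absent in the WT libraries of one stage. Whether the libraries come from separate fish is not stated, and a part of the fish in these differences was not tested. By a rule set after the values were seen (5 FPKM or more in each library of one stage, under 0.5 FPKM in each of the other), 46 genes were on at stage II and off at stage I, and 23 were on at stage I and off at stage II. cox17, a copper chaperone gene for complex IV, had 49.9 and 64.2 FPKM at stage II, against 0.391 and 0.494 FPKM at stage I (5.32 ± 0.28; adjusted p = 6.3e-06, limma). ska3, a gene of the outer kinetochore, had 8.98 and 12.5 FPKM at stage II, against 0.192 and 0.0363 FPKM at stage I (3.39). The exonuclease gene isg20 had 37.4 and 31.2 FPKM at stage II and was listed at 0 in both stage I libraries. In the other direction, chrnb3b, a nicotinic receptor subunit gene, had 0.0762 and 0.156 FPKM at stage II, against 80.8 and 73.0 FPKM at stage I (-6.12 ± 0.10). ncapg, a condensin subunit gene, had 0.0179 and 0 FPKM at stage II, against 51.7 and 45.7 FPKM at stage I (-5.62). The exon junction complex gene magoh, outside that rule, had 6.91 and 8.89 FPKM at stage II, against 332 and 321 FPKM at stage I (-5.21).

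Oocytes of znf706 mutants gave a second set of stage II and stage I libraries that shares no sample with the WT comparison, although both share 1 estimate of the spread. In mutants, 6204 genes were higher at stage II (48.5%) and 2357 lower (18.4%), with a median log2 change of 0.33. Of the 5225 genes that rose in WT oocytes, 3893 (74.5%) were also called higher in mutants, which is 30.4% of the genes tested, and 305 were called lower. Of the 3028 that fell in WT oocytes, 1429 (47.2%) were also called lower in mutants, 11.2% of the genes tested, and 471 were called higher. The test of the difference between mutant and WT stage changes passed for 4685 genes (36.6%).

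Several gene lists moved the same way in mutants as in WT oocytes, and others did not. The same 12 mitochondrially encoded genes rose in both, as did 55 of the 63 chromatin modifier genes called in WT oocytes, and 53 of the 55 ribosomal protein genes called lower in WT oocytes fell in both. Of the 20 yolk uptake genes that rose in WT oocytes, 17 also rose in mutants. Of the 5 egg coat genes that rose in WT oocytes, none was called higher in mutants and 4 were called lower, whereas 10 of the 12 that fell also fell in mutants. The change of zp2.6 was -3.08 in mutants (87.7 and 87.1 FPKM at stage II, against 742 and 747 FPKM at stage I) and 2.97 in WT oocytes. The glycosylation genes had 30 higher and 10 lower of 54 in mutants, and 17 higher and 17 lower in WT oocytes. The TGF-beta family genes had 14 higher and 2 lower of 24 in mutants, and 8 higher and 8 lower in WT oocytes. Lysosomal genes had 23 higher and 8 lower of 46 in mutants, and 10 higher and 19 lower in WT oocytes. Dorsal determinant and Wnt genes had 9 higher and 4 lower of 20 in mutants, and 14 higher and 2 lower in WT oocytes. Relative to all tested genes of the same genotype, their median was -0.005 in mutants and 0.37 in WT oocytes. Over all tested genes, the shares were 48.5% higher and 18.4% lower in mutants, and 40.8% and 23.7% in WT oocytes. The list counts hold that difference between the genotypes too. No test of the difference was made for lists.

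Shares of called genes that mutants had too are given by the size of the WT change, without a test between sizes. Of the 1743 rises of at least 2-fold in WT oocytes 76.6% were called higher in mutants, of the 184 of at least 4-fold 45.7%, and of the 23 of at least 16-fold 34.8%. For falls the shares were 53.3% of 976, 49.7% of 185 and 53.8% of 26. Of the 46 genes on only at stage II in WT oocytes, 7 had that pattern in mutants, 6 had the opposite pattern, 9 had at least 5 FPKM in all 4 mutant libraries and 11 had under 0.5 FPKM in all 4. gtf3ab showed the opposite pattern, with 0.134 and 0 FPKM at stage II and 83.8 and 77.1 FPKM at stage I in mutants. thumpd3 did too, with 0.0464 and 0.0454 FPKM at stage II and 42.3 and 42.9 FPKM at stage I in mutants, against 29.4 and 28.1 FPKM at stage II and 0.0409 and 0.0605 FPKM at stage I in WT oocytes. Of the 23 genes on only at stage I in WT oocytes, 1 had that pattern in mutants and 1 had the opposite pattern. Another 5 had at least 5 FPKM in all 4 mutant libraries, and 9 had under 0.5 FPKM in all 4. Among these 23 genes, ncapg was at or under 0.0459 FPKM in all 4 mutant libraries, and chrnb3b had 36.8 to 48.0 FPKM. magoh was low in all 4 mutant libraries, at 5.87 to 9.005 FPKM, and birc5b was at or under 0.549 FPKM in all 4. tia1l, an RNA-binding protein gene, was high in all 4, at 149 to 213 FPKM, against 4.57 and 3.23 FPKM at stage II and 235 and 206 FPKM at stage I in WT oocytes.

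Large changes that both genotypes had, named after their values were seen, included rises of cox17 (5.76 in mutants and 5.32 in WT oocytes), sap18, a histone deacetylase complex gene (5.57 in mutants and 3.99 in WT oocytes), ska3 (4.30 in mutants and 3.39 in WT oocytes) and mt-cyb (2.28 in mutants and 2.36 in WT oocytes). Shared falls included polr3f (-5.25 in mutants and -4.38 in WT oocytes), wnt8a (-2.96 in mutants and -3.78 in WT oocytes) and the exosome gene exosc1 (-2.17 in mutants and -2.37 in WT oocytes). Among abundant genes, btg4 fell by 1.59 in mutants and by 1.35 in WT oocytes, and zpcx by 1.43 in mutants and by 1.62 in WT oocytes.

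**Figure D5:**
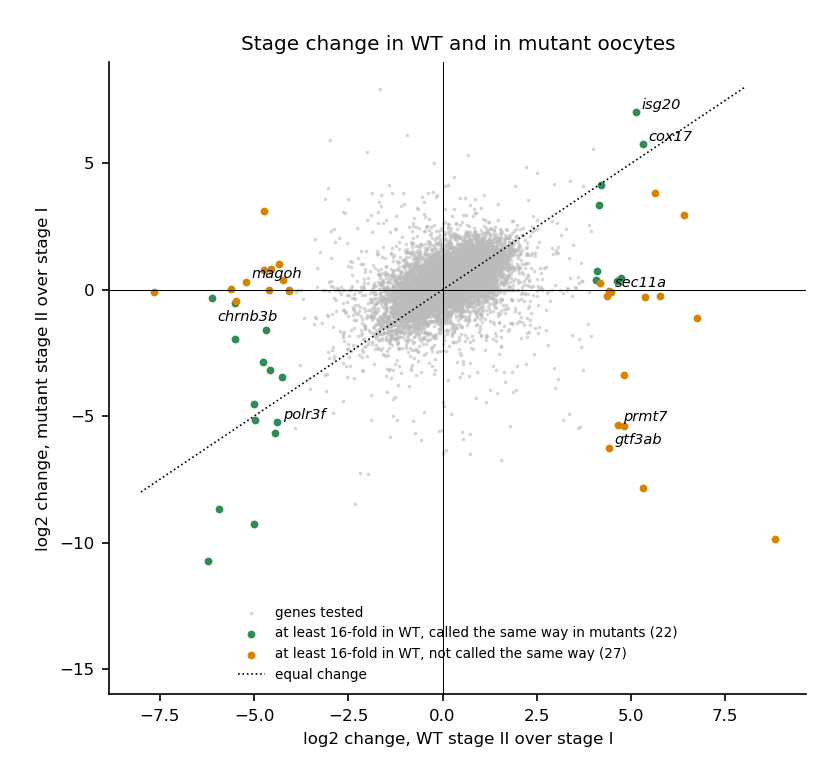
Log2 change at stage II relative to stage I in znf706 mutant oocytes (vertical axis) against that in WT oocytes (horizontal axis), 1 point per tested gene, with genes that changed at least 16-fold in WT oocytes in colour. Of the 23 coloured rises 8 were called higher in mutants, and of the 26 coloured falls 14 were called lower.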

How the data were processed

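Polyadenylated RNA of hand-picked oocytes was sequenced in 8 libraries, 2 per genotype and stage. The series text calls them biological replicates, and whether they come from separate fish is not stated. The submitters' processing notes name Trim Galore, STAR 2.5.3a, Cufflinks 2.2.1 and the genome build danRer11. The values the authors deposited are FPKM in 1 merged table of 32197 rows; read counts were not used, so absolute depth is unknown. Very low values put relative depth at 0.889 to 1.04 of that of WT stage I replicate 1. Exact duplicate rows (24) were merged, and 103 gene IDs with conflicting rows were left out, 45 of which would have passed the filter.

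Genes that reached 1 FPKM in 2 or more of the 4 WT libraries were tested on log2(FPKM + 1), which understates changes of low genes, with limma 3.58.1 in R 4.3.3 (4 group means over the 8 libraries, moderated with a trend; 4 residual and 4.13 prior degrees of freedom). P-values were adjusted over all 12792 genes (Benjamini-Hochberg, 0.05). The procedure was tested on simulated data with independent noise and few changed genes, so that test does not bear on the scaling. No genome or gene sequence of this build was used here, and strand and the handling of shared reads are not given in the sources used here.

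Members and gene lists were chosen with earlier results of these data known. Lists (40) are described by counts and medians beside all tested genes, without a set test. The text selects from genes fixed by rule: 28 key genes, the 14 largest rises and falls with a symbol and at least 5 FPKM, 4 called members per list and direction, and the 10 most abundant genes per stage. Other genes in the text are list members, or were named after their values were seen (etf1b, thumpd3, tia1l, the on and off genes and the shared changes). Alternatives were other scalings, pseudocounts and filters, WT libraries alone, a replicate block, other moderation, and leaving out each WT library.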

Additional observations from a re-analysis of the deposited data

Results flagged for a closer look

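For 14 of the 25 tested gene IDs of key genes, the stage change differed between znf706 mutant and WT oocytes. rrm2 entered under each of its IDs. The test was that of the difference itself (limma, adjusted p under 0.05), which 36.6% of all 12792 genes passed. Key genes were chosen with earlier results of these data known. Each difference below is the mutant minus the WT change, in log2. The difference was below 0 for gtf3ab (-10.66), rrm2 under the ID ENSDARG00000078069 (-7.87), zp2.1 (-2.74), dazl (-0.81), dnd1 (-0.73), zar1 (-0.56), ccnb1 (-0.50), h1m (-0.47) and nanos3 (-0.37). It was above 0 for pou5f3 (1.17), gdf9 (0.70), buc (0.54), lhx8a (0.34) and bmp15 (0.29).

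gtf3ab changed by -6.26 in mutants and by 4.41 in WT oocytes, and the rrm2 ID by -1.11 in mutants and by 6.76 in WT oocytes. zp2.1, an egg coat gene, fell in mutants (-3.01) and was not called in WT oocytes (-0.27, with 327 and 207 FPKM at stage II, against 266 and 372 FPKM at stage I). gdf9 changed by -0.03 in mutants, without a call, and by -0.73 in WT oocytes. buc fell by 0.61 in mutants and by 1.15 in WT oocytes. dazl and dnd1 fell in mutants (-1.04 and -0.60) and were not called in WT oocytes (-0.23 and 0.13).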

How the results depend on the processing

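The counts of rises, falls and differing stage changes stayed within 1.5 times under the 12 other settings and on leaving out each WT library. Leaving out 1 library gave 4373 to 5104 rises, 2460 to 2842 falls and 3498 to 4718 differing changes. The 4 WT libraries alone gave 4879 rises and 2887 falls, and cannot give differing changes. Same-numbered libraries did not deviate together (r = -0.036 across genes); the replicate block gave 4855 rises, 2876 falls and 3824 differing changes. Of the 320 named genes with a test, 311 were called, 30 lost a call on leaving out at least 1 library and 8 turned sign (zp3.2 had no call as deposited): lhx8a under median-of-ratios scaling (-0.0672), and under quantile normalization zp3.2 under the ID ENSDARG00000090768 (1.03), cldnd (0.92), zp3a.1 (0.73), crp2 (0.38), si:dkey-241l7.5 (0.31), ccnb1 (0.0578) and npm2b (0.0209); the cause was not tested. The 2 libraries per stage and the unknown depth limit all values.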
